A study of Homo sapiens with 3 samples.

Results

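BMI1 and 9 other human genes make up the Polycomb set described here, which holds the PCGF subunits (BMI1, PCGF1, PCGF2, PCGF3, PCGF5 and PCGF6), the ubiquitin ligases RING1 and RNF2 and the methyltransferases EZH1 and EZH2. They were chosen by gene name, on the main chromosome references, and all 10 had a row in each of the 3 deposited gene tables, out of 39320 such rows. RNA-seq was carried out on polyA RNA of 3 libraries, replicates 1 to 3, labelled as HepG2 cells, a human line established from a liver cancer, with the genotype WT (wild type). No agent, time point or other condition is given, so the data have 1 condition and no comparison between conditions was possible. Nothing in the labels says that the replicates came from separate cultures, so the spread between them may be technical. The study examined splicing of METTL3, an RNA methyltransferase, and its primers for RT-qPCR include a pair for BMI1.

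Polycomb proteins keep genes silent through chromatin. Polycomb repressive complex 2 (PRC2) methylates histone H3 on lysine through EZH1 or EZH2, and Polycomb repressive complex 1 (PRC1) places ubiquitin on histone H2A through RING1 or RNF2, each paired with a single PCGF protein. BMI1, also named PCGF4, and PCGF2 form canonical PRC1 with chromodomain proteins that bind the mark of PRC2, whereas PCGF1, PCGF3, PCGF5 and PCGF6 form variant PRC1 complexes, and in liver cancer BMI1 and EZH2 are studied as genes that promote growth.

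The tables give coverage, the mean depth of reads over a gene, and FPKM and TPM, which scale for gene length and library size. They hold no counts, so the number of reads is unknown, and precision is expressed as the SD over 3 libraries. The highest coverage per FPKM, which rises with depth, was 13.3, 12.8 and 11.5 in replicates 1, 2 and 3, and Pearson's r of log2(TPM + 1) across 14201 genes, which are not independent replicates, was 0.991 to 0.992 between libraries. Of 15 listed genes for secreted hepatocyte proteins, 13 stayed below 1 TPM throughout and 10 of these were listed at 0 in all 3 libraries, among them ALB, APOA1, APOB and SERPINA1, while RBP4 and VTN had 11.0 ± 0.508 and 23.3 ± 0.560 TPM (SD, n = 3). The 5 listed genes common to all cells had means of 2776 TPM or above. These marker levels go against the label of a liver cancer line, so the cell type of the libraries is in doubt and the values hold for libraries labelled HepG2. In bulk RNA fewer cells that express a gene cannot be told apart from less RNA per cell.

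BMI1 lies on the plus strand of chromosome 10 (GRCh38), and its deposited row runs from 22321099 to 22331484. It lies within the row of COMMD3-BMI1, a read-through gene that starts at the promoter of the upstream gene COMMD3, so the level of BMI1 depends on how reads in shared exons were assigned. In GENCODE v44 the canonical BMI1 transcript has 10 exons and 3540 nt, of which 1000 nt (28.2%) also lie in exons of COMMD3-BMI1. COMMD3-BMI1 ends at 22329542 in GENCODE v44, but its deposited row ends at 22331485, past the end of the BMI1 row. The shared part in the annotation behind the deposited values may therefore be larger, and it is not known here. The junctions that set the transcripts apart are given here with 15 bases from each side, 5′ to 3′ on the plus strand, and capitals mark the first bases of the exon that both transcripts share, at chr10:22326431-22326561.
BMI1, exon 1 (chr10:22321099-22321696) to exon 2: ggctgctctttccggGATTTTTTATCAAGC
COMMD3-BMI1, exon 5 (chr10:22318959-22319018) to exon 6: atggaacaattacagGATTTTTTATCAAGC
The right 15 bases are the same in both, and only the left 15 bases tell the transcripts apart. The intron removed is 4734 bp long for BMI1 and 7412 bp for COMMD3-BMI1, and both begin with GT and end with AG. The start codon of BMI1 lies within the shared exon, at 22326450 to 22326452, so the BMI1 junction is in the 5′ UTR, whereas the start codon of COMMD3-BMI1 lies in an exon further upstream, at 22316418 to 22316420. The deposited tables give 1 value per gene and no reads over these junctions.

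All 10 genes were expressed at 1 TPM or more in every library, a level reached by 33.8% of all rows. Of the 39320 rows, RefSeq lists 18743 as protein coding, and the share of these at 1 TPM is not given here. At least 10 TPM in every library was reached by 8 of the 10, compared with 20.7% of all rows and 40.4% of the rows that RefSeq lists as protein coding. The exceptions were PCGF3 and EZH1, which were below 10 TPM in all 3 libraries. The median of the 10 means was 20.3 TPM, compared with 15.4 TPM over the 13753 genes that averaged at least 1 TPM (expressed genes), and the means spanned 7.50-fold from EZH1 to EZH2.

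**Figure D1:**
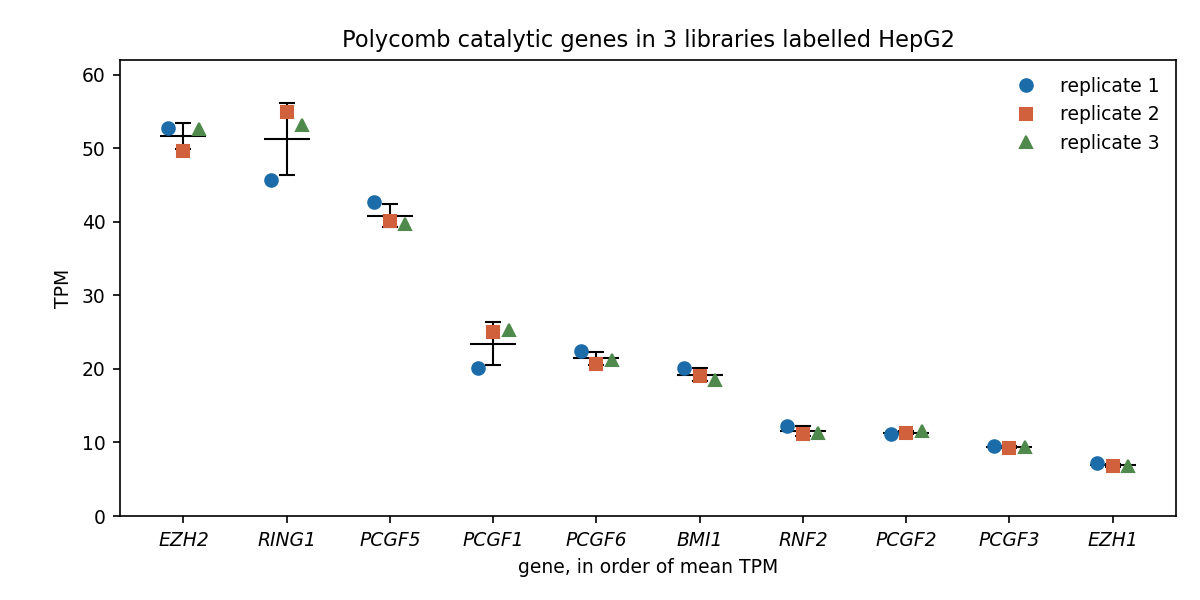
TPM of the 10 Polycomb genes in order of their mean, with 1 point per library, a wide line at the mean and bars of 1 SD over 3 libraries. EZH2 and RING1 lie at about the same level at the top, 51.7 and 51.3 TPM, and EZH1 is lowest at 6.89 TPM, with replicate 1 below the other libraries for RING1 and PCGF1.

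Among the PCGF genes, PCGF5, a subunit of a variant complex that lacks chromodomain proteins, had the highest TPM. It had 42.7, 40.1 and 39.7 TPM in replicates 1, 2 and 3, a mean of 40.8 ± 1.62 TPM (SD, n = 3), which exceeded 74.3% of the expressed genes. By coverage this share was 27.7%. Its row covers 121936 bp on chromosome 10, plus strand (91162402 to 91284337). All 3 libraries of PCGF5 were above every library of the other PCGF genes.

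PCGF1, which joins BCOR and the CpG island binding protein KDM2B in a variant complex, had 20.1, 25.0 and 25.3 TPM, a mean of 23.5 ± 2.88 TPM (SD, n = 3). Replicate 1 was the low library, and PCGF1 had the largest coefficient of variation of the 10 genes at 12.3%. PCGF6, the subunit of the variant complex that contains E2F6 and MGA, had 22.4, 20.7 and 21.2 TPM, a mean of 21.4 ± 0.888 TPM (SD, n = 3). PCGF1 and PCGF6 overlapped, since PCGF1 was higher in 2 of 3 libraries and lower in replicate 1. The row of PCGF1 is at 74505043 to 74507695 of chromosome 2 and that of PCGF6 at 103302796 to 103351140 of chromosome 10, both on the minus strand.

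BMI1, a subunit of canonical PRC1 and a known repressor of the CDKN2A locus, had 20.2, 19.0 and 18.5 TPM, a mean of 19.2 ± 0.860 TPM (SD, n = 3). In FPKM the same libraries had 9.52, 9.09 and 8.86, a mean of 9.16 ± 0.338 (SD, n = 3). BMI1 exceeded 55.9% of the expressed genes and ranked sixth of the 10. It was below PCGF6 in each library, but its value in replicate 1 was above that of PCGF1. The genes whose TPM lay nearest to BMI1 over the 3 libraries, by Euclidean distance of log2(TPM + 1), were MTERF3 at a distance of 0.0127, TRIP4 at 0.0152 and THAP11 at 0.0261, which describes 3 values per gene and nothing more.

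PCGF2, also named MEL18 and the closest paralog of BMI1, had 11.2, 11.3 and 11.6 TPM, a mean of 11.4 ± 0.233 TPM (SD, n = 3). PCGF3, which forms variant complexes like those of PCGF5, had 9.50, 9.25 and 9.35 TPM, a mean of 9.36 ± 0.124 TPM (SD, n = 3). These were the lowest PCGF genes by TPM, and PCGF2 was above PCGF3 in 3 of 3 libraries. By coverage PCGF3 was above PCGF2 in 3 of 3 libraries, and PCGF5 was the lowest PCGF gene. The row of PCGF2 is at 38733898 to 38749817 of chromosome 17 (minus strand), and that of PCGF3 at 705741 to 770980 of chromosome 4 (plus strand). A further row of PCGF2 on an alternate reference was listed at 0. PCGF3 varied least of the 10 genes, with a coefficient of variation of 1.32%.

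The 6 PCGF genes together had 126.1, 125.3 and 125.6 TPM. PCGF5 made up 32.5 ± 1.20% of this sum, PCGF1 18.7 ± 2.34%, PCGF6 17.1 ± 0.654% and BMI1 15.3 ± 0.647% (SD, n = 3). PCGF2 made up 9.03 ± 0.197% and PCGF3 7.45 ± 0.0757% (SD, n = 3). The canonical subunits BMI1 and PCGF2 were thus the fourth and the fifth share by TPM.

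RING1, a RING finger ubiquitin ligase of PRC1, had 45.7, 54.9 and 53.2 TPM, a mean of 51.3 ± 4.89 TPM (SD, n = 3). RNF2, also named RING1B, the other ligase, had 12.3, 11.1 and 11.3 TPM, a mean of 11.6 ± 0.631 TPM (SD, n = 3). RING1 was the higher ligase in each library and made up 81.5 ± 2.34% of their summed TPM (SD, n = 3). RING1 was lowest in replicate 1 and RNF2 was highest there, so their ratio was closest in that library. The further 5 rows of RING1, on alternate references, were all listed at 0. Both genes lie on plus strands, RING1 at 33208500 to 33212716 of chromosome 6 (4217 bp) and RNF2 at 185045430 to 185102603 of chromosome 1 (57174 bp).

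EZH2, the methyltransferase of PRC2 that is high in dividing cells, had 52.8, 49.7 and 52.6 TPM, a mean of 51.7 ± 1.76 TPM (SD, n = 3). EZH1, its paralog, known to be kept in cells that do not divide, had 7.16, 6.78 and 6.74 TPM, a mean of 6.89 ± 0.230 TPM (SD, n = 3). EZH2 made up 88.2 ± 0.352% of the TPM of the pair (SD, n = 3), and the libraries of the pair did not overlap. By TPM the libraries of EZH2 and RING1 overlapped, with EZH2 higher in 1 of 3 libraries. By coverage RING1 was above EZH2 in 3 of 3 libraries. Both lie on minus strands, EZH2 at 148807372 to 148884349 of chromosome 7 and EZH1 at 42700275 to 42745096 of chromosome 17.

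Ratios between paralogs were computed within each library, on the log2(TPM + 1) scale. EZH2 exceeded EZH1 by 2.72, 2.70 and 2.79 in replicates 1, 2 and 3, a mean of 2.74 ± 0.05 (SD, n = 3) or 7.50-fold in mean TPM. The log2 ratio of RNF2 to RING1 was -1.81, -2.21 and -2.14, a mean of -2.05 ± 0.21 (SD, n = 3), with RING1 4.44-fold higher in mean TPM. Both pairs kept their direction in 3 of 3 libraries.

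BMI1 was above PCGF2 by 0.71 ± 0.09 and above PCGF3 by 0.96 ± 0.05 in log2 ratio (SD, n = 3), or 1.69-fold and 2.05-fold in mean TPM. It was below PCGF5, with a log2 ratio of -1.05 ± 0.01, and below PCGF6, with -0.15 ± 0.04 (SD, n = 3), so that PCGF5 was 2.13-fold and PCGF6 1.11-fold higher in mean TPM. Each of these had 1 direction in 3 of 3 libraries. The ratio of BMI1 to PCGF1 was 0.00238, -0.37 and -0.43, a mean of -0.27 ± 0.24 (SD, n = 3), and did not hold its direction. An exact permutation test that flips signs (two-sided) returned p = 0.5 for BMI1 and PCGF1 and p = 0.25 for each of the other 6 ratios, the lowest value possible with 3 libraries. After Benjamini-Hochberg adjustment over the 7 ratios, these exact permutation values were 0.5 and 0.292.

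The order of the genes depended on the column that was read. By coverage, which like TPM is per base of the gene, RING1 was highest with 287, 337 and 292 in replicates 1, 2 and 3, a mean of 305 ± 27.7 (SD, n = 3). EZH2, PCGF6, PCGF1 and BMI1 followed with means of 136 ± 10.8, 125 ± 12.5, 121 ± 11.7 and 115 ± 12.5 (SD, n = 3), and the values of each overlapped those of the next in this order. Coverage is not scaled for depth, so these SDs include differences between libraries that the genes share, and within libraries EZH2 was above PCGF6 in 3 of 3. PCGF3 had 55.1 ± 4.12, PCGF2 45.9 ± 2.50 and EZH1 40.3 ± 3.91 (SD, n = 3).

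PCGF5 and RNF2 stood furthest below their place by TPM. PCGF5 had a coverage of 20.5, 17.4 and 15.5, a mean of 17.8 ± 2.51 (SD, n = 3), and was rank 3 by TPM but rank 9 by coverage. RNF2 had 5.71, 5.05 and 4.40, a mean of 5.06 ± 0.653 (SD, n = 3), and was rank 7 by TPM but rank 10 by coverage. Coverage ranged 60.4-fold over the 10 genes, compared with 7.50-fold for TPM.

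Coverage per FPKM, relative to the highest such ratio in the same library, shows the difference gene by gene. It was 1 for RING1, 1.00 for BMI1, 0.985 for PCGF3, 0.979 for EZH1 and 0.977 for PCGF6, at or near the highest ratio of the library. It was 0.678 for PCGF2 and 0.441 for EZH2, and only 0.0731 for RNF2 and 0.0727 for PCGF5. Over all rows above 1 FPKM the median was 0.790, and 4.84% to 4.88% of these rows in each library were below 0.1. PCGF5 and RNF2 were among these rows, and the cause was not tested.

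**Figure D2:**
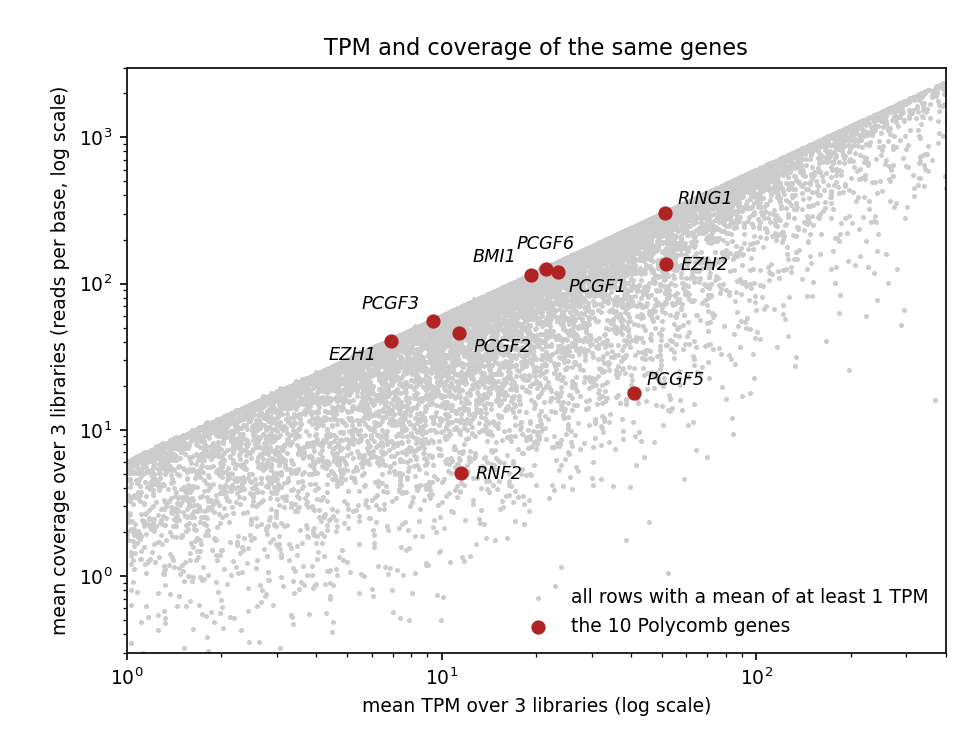
Mean coverage (reads per base) against mean TPM over 3 libraries, both on log scales, with grey points for all expressed genes and red points for the 10 Polycomb genes. RING1, BMI1, PCGF3, PCGF6 and EZH1 lie on the upper edge of the grey points, whereas PCGF5 and RNF2 lie far below it, at a coverage of 17.8 and 5.06.

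The shares within a group changed with the column as well. By coverage, PCGF6 made up 26.1%, PCGF1 25.2% and BMI1 23.9% of the PCGF sum, and PCGF5 made up 3.70%. The log2 ratio of BMI1 to PCGF5 turned from -1.05 by TPM to 2.63 by coverage. RING1 made up 98.4% of its pair, and EZH2 made up 77.2% of its own. RING1 above RNF2 and EZH2 above EZH1 held by TPM and by coverage. The places of PCGF5 above BMI1 and of PCGF2 above PCGF3 held by TPM only. FPKM cannot give another order than TPM, since it differs from TPM by a constant factor within each library.

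**Figure D3:**
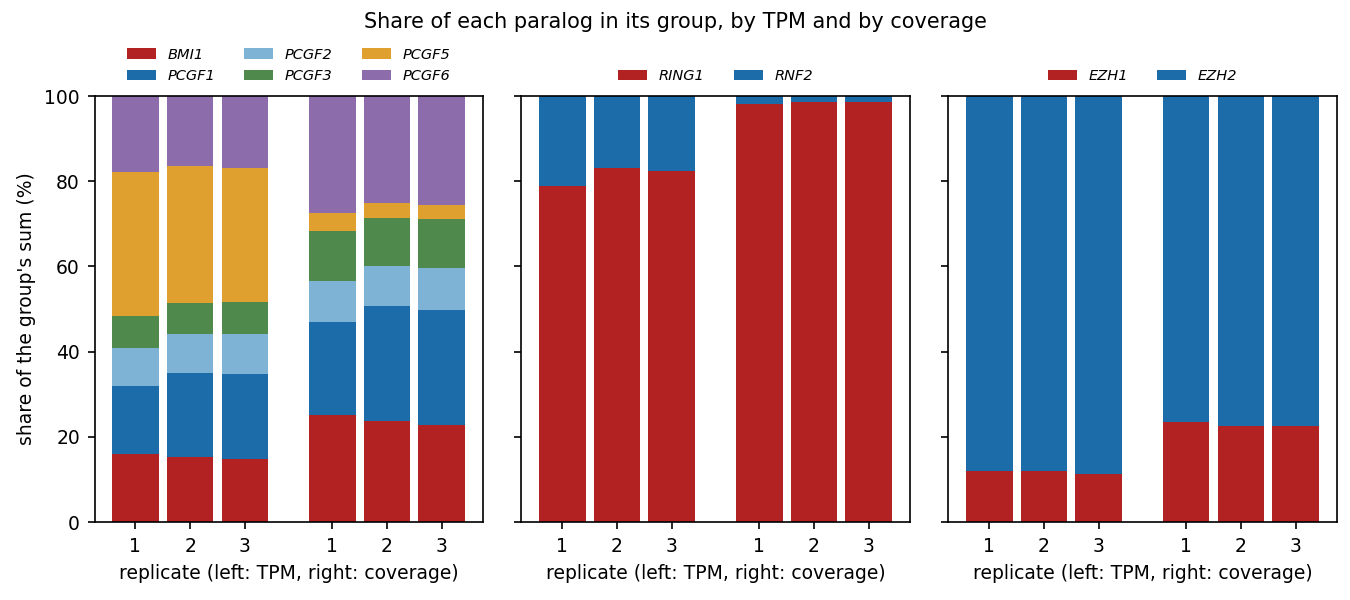
Share (%) of each gene in the sum of its paralog group, with 1 stacked bar per library, TPM at the left and coverage at the right of each panel. PCGF5 takes 32.5% of the PCGF sum by TPM and 3.70% by coverage, while RING1 and EZH2 take most of their pairs on either scale.

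Rows of other genes shared bases with 5 of the 10 rows. COMMD3-BMI1 covered all 10386 bp of the BMI1 row on the same strand, and had 2.37, 1.42 and 1.84 TPM, a mean of 1.88 ± 0.473 TPM (SD, n = 3). This was 11.7%, 7.49% and 9.94% of the BMI1 value in replicates 1, 2 and 3, and BMI1 and COMMD3-BMI1 together had 21.1 ± 1.24 TPM (SD, n = 3). COMMD3, a gene of endosomal sorting upstream of BMI1, had 31.0, 34.4 and 34.6 TPM and was above BMI1 in each library. The read-through row was thus low beside both of the genes it joins, and reads in the exons that it shares with BMI1 cannot be told apart here.

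For PCGF2 the overlap was larger than for BMI1 only as a share of the canonical transcript, by GENCODE v44 exons. CISD3, which codes for a mitochondrial iron-sulfur protein, lies on the opposite strand and shares 1708 bp with the PCGF2 row, and 1703 of the 2634 nt (64.7%) of the canonical PCGF2 transcript lie in CISD3 exons. CISD3 had 53.3, 62.5 and 63.0 TPM, a mean of 59.6 ± 5.46 TPM (SD, n = 3), above PCGF2 in each library. The strand setting of the quantification is not given in the sources used here, so the part of reads of CISD3 in the PCGF2 value was not tested. LOC100287808 shares 784 bp at the other end of PCGF2 and was listed at 0, 0.231 and 0 TPM.

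The other overlaps were with rows at lower levels. LBX2-AS1, on the opposite strand, shares 23 bp with the 3′ end of PCGF1 and had 6.21 ± 0.550 TPM (SD, n = 3), and by GENCODE v44 exons it covers 49 of 907 nt (5.40%) of the canonical PCGF1 transcript. Within PCGF3, LOC107986246 on the same strand had 0.643 ± 0.122 TPM and LOC107986211 on the opposite strand 0.455 ± 0.0538 TPM (SD, n = 3). MIR6780A, a microRNA row of 68 bp within EZH1, was listed at 0, 0 and 0.804 TPM. PCGF5, PCGF6, RING1, RNF2 and EZH2 shared no bases with another row.

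By median, the spread of the 10 genes between libraries was somewhat below that of other genes. Their range of log2(TPM + 1), highest minus lowest library, had a median of 0.106. The maximum was 0.314 in PCGF1, followed by 0.260 in RING1, compared with a median of 0.129 over rows with a mean of at least 10 TPM. For 0 of the 10 genes was the range above 1, compared with 0.273% of the 8419 rows with a mean of at least 10 TPM. This share is so small that 0 of 10 is no result about these genes. The median coefficient of variation was 4.06% for the 10 genes and 4.88% for those rows, which leave out PCGF3 and EZH1 by their level. Among all expressed genes, the coefficient of variation exceeded that of 84.3% for PCGF1 and 74.8% for RING1, and of 4.26% for PCGF3. Over the 10 genes the median of this share was 29.1%.

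Replicate 1 was the highest or the lowest library for each of the 10 genes, although it did not stand apart from both others in all of them. BMI1, PCGF3, PCGF5, PCGF6, RNF2, EZH1 and EZH2 were highest in replicate 1, and PCGF1, PCGF2 and RING1 were lowest there. In EZH2 replicate 2 was the library furthest from the others, and in PCGF2 it was replicate 3. On the log2(TPM + 1) scale, replicate 1 minus the mean of replicates 2 and 3 was -0.31 for PCGF1 and -0.24 for RING1, and lay between -0.03 for PCGF2 and 0.12 for RNF2 in the other genes. PCGF1 and RING1 have the shortest rows of the 10, at 2653 and 4217 bp.

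Gene span moved with this difference over all rows as well. Of the rows with a mean of at least 10 TPM, 72.8% were higher in replicate 1, with a median difference of 0.07, and Spearman's rho of the difference with span was 0.364 across 8419 rows, which share the same 3 libraries. The median difference rose from 0.00263 in the sixth of rows with the shortest span to 0.119 in the sixth with the longest. PCGF1 and RING1, which lie in the shortest sixth by span, were below 0 while the median of that sixth was slightly above it, and the part of span in their values was not tested.

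**Figure D4:**
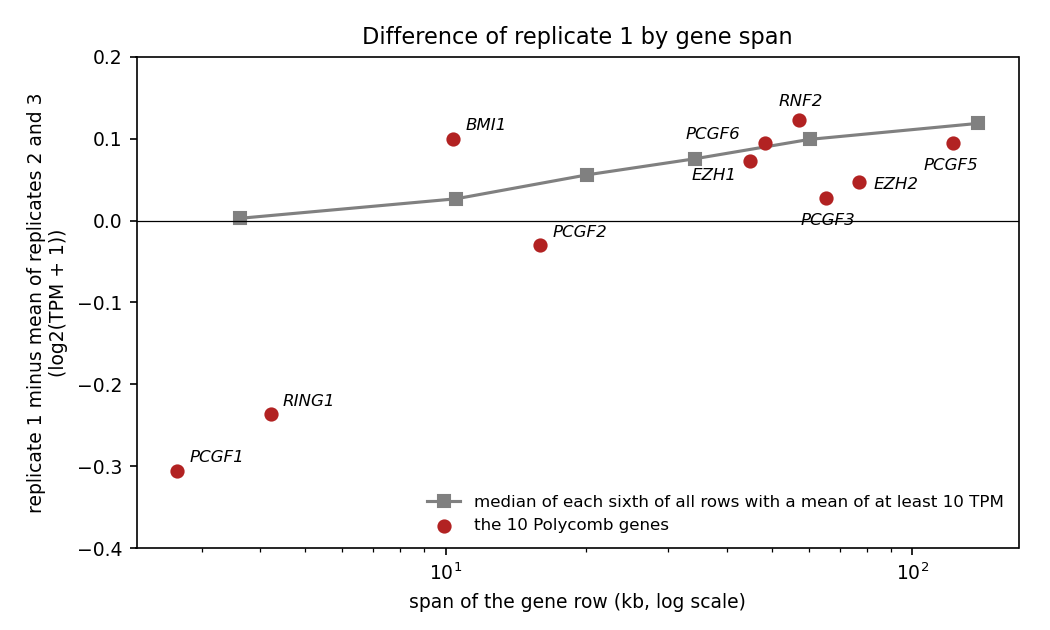
Difference of replicate 1 from the mean of replicates 2 and 3, in log2(TPM + 1), against the span of the gene row (kb, log scale), for the 10 Polycomb genes in red and, in grey, the medians of sixths of all rows with a mean of at least 10 TPM. PCGF1 at -0.31 and RING1 at -0.24 lie lowest, and the grey medians rise from 0.00263 to 0.119.

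The partners of these enzymes were listed by complex. Of 12 PRC2 partners, 9 reached 10 TPM throughout, with a median of 23.4 TPM over the list. RBBP7, a histone binding subunit that also serves other complexes, was highest at 287 ± 0.199 TPM (SD, n = 3), and EZHIP, an inhibitor of EZH2 that is known mainly from the germ line, was listed at 0 in all 3 libraries. JARID2, which helps recruit PRC2, and LCOR were the others below 10 TPM in every library, at 8.93 ± 0.331 and 6.90 ± 0.884 TPM (SD, n = 3). The partners that EZH2 needs for activity were above that level, with EED at 41.8 ± 1.68 and SUZ12 at 35.4 ± 1.97 TPM (SD, n = 3), both below the 51.7 TPM of EZH2.

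Of 11 canonical PRC1 partners, 8 reached 10 TPM throughout and the median was 15.9 TPM. CBX7, a chromodomain subunit, was lowest at 1.80 ± 0.163 TPM (SD, n = 3). PHC1, a Polyhomeotic subunit, had 3.50 ± 0.486 TPM (SD, n = 3), and its paralog PHC3 had 11.3, 9.59 and 8.55 TPM and so missed the limit in 2 libraries.

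Of 22 variant PRC1 partners, 20 reached 10 TPM throughout and the median was 32.3 TPM. CBX3, which codes for HP1 gamma, was highest at 333 ± 6.74 TPM, and BCORL1, a paralog of the PCGF1 partner BCOR, was lowest at 1.72 ± 0.187 TPM (SD, n = 3). AUTS2, a partner of PCGF3 and PCGF5, had 6.87 ± 0.246 TPM (SD, n = 3) and a low coverage per FPKM of 0.0277 relative to the highest. This was not particular to partners of PCGF5, since JARID2 of the PRC2 list had 0.0738, and PCGF3 itself had 0.985. Over the 3 lists, 37 of 45 partners (82.2%) reached 10 TPM in all 3 libraries, compared with 20.7% of all rows and 40.4% of protein-coding rows, and many of them, such as HDAC1 and SKP1, belong to other complexes that most cells use. JARID2, LCOR, EED, SUZ12, PHC1, PHC3, AUTS2, HDAC1 and SKP1 were named after their values were seen.

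**Figure D5:**
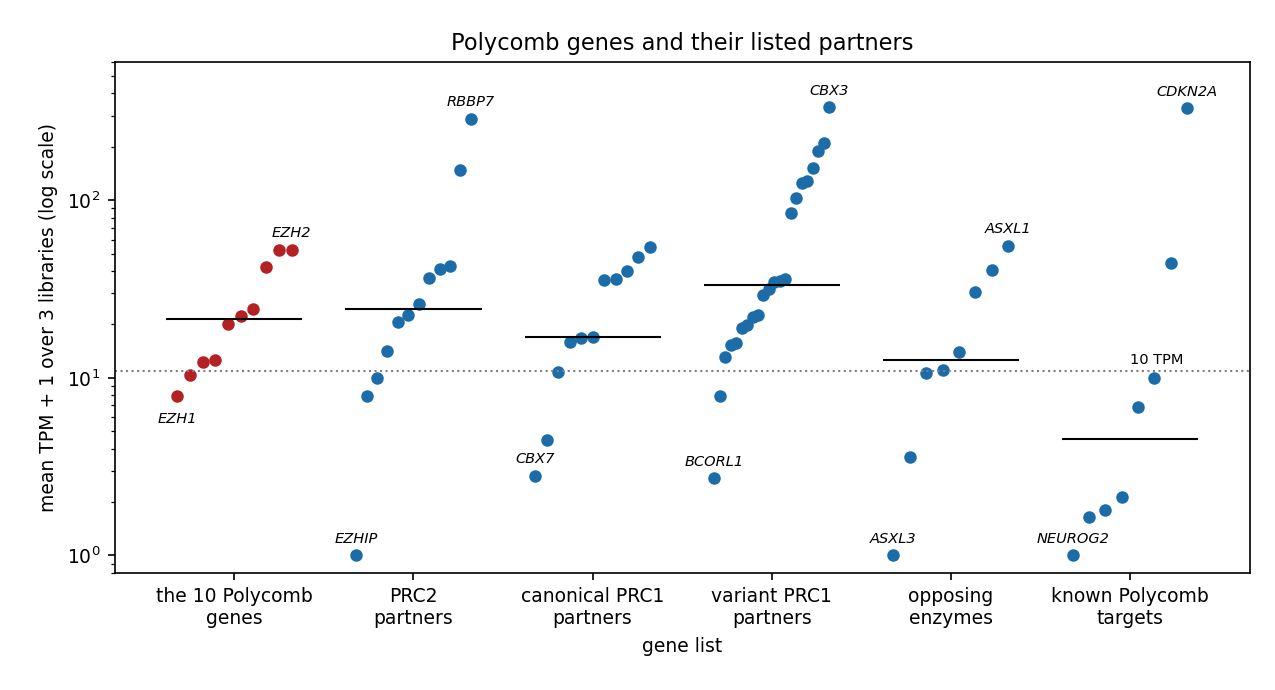
Mean TPM + 1 over 3 libraries (log scale) of each gene in the 10 Polycomb genes and 5 lists, with a line at the median of each list, names at its highest and lowest gene (at the lowest only for canonical PRC1 partners) and a dotted line at 10 TPM. The 10 Polycomb genes lie within the range of the partner lists, and EZHIP, ASXL3 and NEUROG2 lie at 0 TPM.

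Enzymes that remove the Polycomb marks were also present. Of 8 listed enzymes and cofactors, 4 reached 10 TPM throughout, near the 40.4% of protein-coding rows. ASXL1, the cofactor of the H2A deubiquitinase BAP1, was highest at 54.5 ± 2.07 TPM (SD, n = 3), and its paralog ASXL3 was listed at 0 in all 3 libraries. By median the list had 11.5 TPM, compared with 20.3 TPM for the 10 Polycomb genes.

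Of 8 genes known as Polycomb targets, 2 reached 10 TPM throughout, compared with 20.7% of all rows and 40.4% of protein-coding rows. CDKN2A, which codes for the cell cycle inhibitors p16 and ARF and is a classical target of BMI1, had 293, 353 and 341 TPM, a mean of 329 ± 31.4 TPM (SD, n = 3). CDKN2A was thus far above BMI1 and EZH2 in each library, while its coverage per FPKM was 0.269 relative to the highest. The genes of this list below 1 TPM in every library were HOXD10, HOXD13 and NEUROG2. The developmental genes HOXD10 and HOXD13 had 0.795 ± 0.106 and 0.653 ± 0.0407 TPM (SD, n = 3), and NEUROG2, a neuronal transcription factor, was listed at 0 in all 3 libraries. A further 3 genes of the list met neither this limit nor that of 10 TPM. The list had a median of 3.50 TPM, and these levels in 1 condition do not show which genes Polycomb regulated.

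In the RefSeq promoter windows of GRCh38.p14, 300 bases from 250 before to 50 after a start, the 10 genes had 15 windows. The dinucleotide CG, which reads the same on both strands, occurred at least 28 times in 12 of the 15 windows, compared with 26.2% of all 35116 windows. By gene, 8 of the 10 had such a window, compared with 29.6% of the 27305 genes in the table. The rows that RefSeq lists as protein coding, 18743, are fewer than this, and a share over protein-coding genes alone is not given here. BMI1 had 36 and 65 in its pair of windows, EZH2 45 and 46, RING1 and RNF2 41 each, PCGF3 38, EZH1 30 and PCGF6 28. PCGF5 ranged from 5 to 55 over 4 starts, of which 3 reached 28. PCGF1 with 14 and PCGF2 with 2 were the genes below this number, and the median over all windows was 14. These counts describe the reference sequence and not which start was used in these libraries.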

How the data were processed

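The authors deposited 1 gene table per library, with coverage (a signal not scaled for library size), FPKM and TPM. Per the paper's methods, paired-end reads were mapped to GRCh38, and the submitters' processing notes list FastQC 0.11.8, Trim Galore 0.6.2, STAR 2.6.1a and StringTie. The annotation and strand setting are not given in the sources used here. The tables hold 1 value per gene and no counts.

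The 43389 rows with equal coordinates in all tables were joined, and 6 others were left out. Mitochondrially encoded rows took 19.9% to 20.2% of TPM. Members and lists were chosen with earlier results of these data known. The genes named were the 10 members, the highest and lowest gene of each list, every listed gene below 1 TPM in all libraries, overlapping rows and the 3 genes nearest to BMI1. EZHIP was matched through an older symbol. The values of 1 listed gene are not reported here. Ratios between paralogs used a pseudocount of 1 and an exact permutation test that flips the sign of each library (two-sided). With 3 libraries this exact permutation test returns p = 0.25 whenever the 3 log2 ratios share a sign, whatever their spread. It covers only these libraries and does not measure the spread between them. The range calculation was checked before use. Protein sequences were not analysed here. Alternatives were other limits, pseudocounts, scalings, columns and rows, and leaving out each replicate. Python 3.11.15, numpy 2.4.6, pandas 2.3.3 and matplotlib 3.10.9 were used.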

Additional observations from a re-analysis of the deposited data

How the results depend on the processing

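With no depth given, a value listed at 0 has no known lower limit of detection. Scaling without mitochondrially encoded rows raised the means to 24.1 TPM for BMI1, 29.4 for PCGF1, 14.2 for PCGF2, 11.7 for PCGF3, 51.1 for PCGF5, 26.8 for PCGF6, 64.2 for RING1, 14.5 for RNF2, 8.62 for EZH1 and 64.7 for EZH2, a nearly equal factor for each. Adding the COMMD3-BMI1 row gave 21.1 TPM for BMI1. The percentile of BMI1, 55.9 among expressed genes, was 67.6 with a limit of 0.1 TPM, 84.6 with no limit and 67.2 by coverage. By coverage the percentile fell from 74.3 to 27.7 for PCGF5, from 42.5 to 6.72 for RNF2 and from 78.9 to 70.8 for EZH2. It rose by coverage for PCGF1, PCGF2, PCGF3, PCGF6, RING1 and EZH1, as for BMI1. By coverage the log2 ratio of BMI1 to PCGF5 reversed from -1.05 to 2.63, and the shares were 23.9% for BMI1, 98.4% for RING1 and 77.2% for EZH2. The cause was not tested. With a limit of 20 TPM, 5 members passed in every library in place of 8, and with a limit of 5 TPM 10 passed. Without mitochondrially encoded rows, 9 members passed the limit of 10 TPM. The share of all rows at 10 TPM or more was 20.7%, and 40.4% among protein-coding rows, a background chosen after the data were seen. The means of the 7 log2 ratios kept their sign with a pseudocount of 0.1, by FPKM and with rows on alternate references added. These alternatives could hardly change a sign. A pseudocount keeps the order within a library, FPKM differs from TPM by a constant factor within each library, and the alternate rows were listed at 0. Median-of-ratios scaling was run on the 10 means only and moved each by less than 1 SD. By coverage RNF2 to RING1 was -5.66 and EZH2 to EZH1 1.73 in log2 ratio, so which pair differed more depended on the column. With each replicate left out, the mean of BMI1 ranged from 18.8 to 19.6 TPM and its log2 ratio to PCGF1 from -0.40 to -0.19, although a mean of 3 cannot move by 1 SD when 1 value is dropped. No paired analysis between groups was possible because there is a single group of libraries.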
